A study of Homo sapiens with 8 samples.

Results

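The guidance genes described here are 10 genes of the netrin, Slit and semaphorin systems, namely NTN4, UNC5B, UNC5C, SLIT2, ROBO1, SEMA3A, SEMA3C, SEMA3F, NRP1 and PLXNA2. They were taken by symbol from the array annotation, with 1 transcript cluster per gene, and are 10 of the 18417 genes with a value. All 10 were measured. The genes were picked with their measured difference between ZR-shEI24 cells and shGFP cells known, so that difference is given below as a description without a test. They were chosen with earlier results of these data known, so the tests between the clones and between the control lines also concern picked genes.

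RNA was measured on 8 Affymetrix arrays of ZR-75-1, an oestrogen receptor-positive human breast cancer cell line, with 2 arrays for each of 4 lines. The ZR-shEI24 lines are 2 independent clones that carry a short hairpin RNA against EI24, a membrane protein of the endoplasmic reticulum whose gene was first described as induced by p53. The shGFP line carries a hairpin against green fluorescent protein, which the human genome does not encode, and the parental line carries no hairpin. All lines were grown in the same serum-containing RPMI medium and received no chemical treatment. Each ZR-shEI24 line is 1 clone, so hairpin and clone cannot be told apart within it, and the sources used here do not say whether the shGFP line was a clone or a pool. No source states that duplicate arrays were separate cultures. The p-values, standard errors and intervals therefore rest on the variation between duplicate arrays, which may be only technical. For the mean of the clones they leave out the spread between the 2 clones.

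Netrins, Slits and class 3 semaphorins are secreted proteins first known for steering growing axons, and the same proteins act on the migration, adhesion and survival of epithelial, vascular and tumour cells. Netrins signal through DCC, neogenin and the UNC5 receptors, and UNC5 receptors are described as dependence receptors, which can trigger cell death when no ligand is bound. Slits signal through the Robo receptors. Most class 3 semaphorins bind a neuropilin, which holds the ligand, together with a plexin, which carries the signal into the cell.

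The promoters of 7 of the 10 genes were read from RefSeq (GRCh38.p14), in 12 windows of 300 bases that start 250 bases before an annotated transcription start. NRP1, SEMA3A and UNC5B were the other genes. The E-box CAGGTG, whose letters the ZEB and SNAI repressors of epithelial genes bind, was looked for on both strands. It stood in 2 of the 12 windows, 1 of SEMA3F and 1 of ROBO1, and in 20.6% of all 35116 windows. The TATA box, searched as TATANAA on both strands, stood in 1 of the 12 windows, that of SLIT2, and in 9.1% of all windows. A match describes the letters and does not show that a factor binds there. The 250 bases before the start are shown for the 3 windows with a match, 5′ to 3′ on the gene's strand, with the E-box of SEMA3F and ROBO1 and the TATA box of SLIT2 in capitals.
SEMA3F, chr3:50154808-50155057, plus strand: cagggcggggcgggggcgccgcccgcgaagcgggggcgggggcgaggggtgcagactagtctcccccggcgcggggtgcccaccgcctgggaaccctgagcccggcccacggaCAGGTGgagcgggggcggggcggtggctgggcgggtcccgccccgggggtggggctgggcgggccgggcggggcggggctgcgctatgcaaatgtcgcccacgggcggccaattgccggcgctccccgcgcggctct
ROBO1, chr3:79019460-79019709, minus strand: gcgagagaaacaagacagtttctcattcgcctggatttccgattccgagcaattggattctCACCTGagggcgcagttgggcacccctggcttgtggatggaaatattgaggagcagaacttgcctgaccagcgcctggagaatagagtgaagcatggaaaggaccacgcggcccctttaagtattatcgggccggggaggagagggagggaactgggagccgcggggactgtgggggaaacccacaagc
SLIT2, chr4:20251655-20251904, plus strand: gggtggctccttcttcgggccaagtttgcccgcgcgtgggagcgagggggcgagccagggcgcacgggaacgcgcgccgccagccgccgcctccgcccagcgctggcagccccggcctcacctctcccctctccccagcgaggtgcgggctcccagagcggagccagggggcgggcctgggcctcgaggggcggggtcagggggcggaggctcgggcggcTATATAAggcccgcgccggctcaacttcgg
The first base of the match lay 137 bases before the start in SEMA3F, 189 in ROBO1 and 30 in SLIT2. SEMA3F has 3 annotated windows and ROBO1 has 2, and the array does not tell which start is used. The 300-base windows held 44 CG pairs at this SEMA3F start, 15 at this ROBO1 start and 36 in SLIT2, those of the other starts held 2 to 47, and the median over all windows was 14.

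The values are log2 intensities, so a difference of 1 is a 2-fold difference, and levels are compared only within a gene. EI24 itself had values of 8.64 and 8.43 in clone 1, 9.25 and 9.19 in clone 2, against 11.97 and 11.91 in shGFP cells and 12.08 and 12.09 in the parental line. Both clones thus held less EI24 mRNA than either control line, with a log2 difference of -3.06 from shGFP (standard error 0.08, adjusted p = 8.6e-09, limma). All 8 luminal epithelial markers fell in ZR-shEI24 cells, with mean log2 values of 8.73 to 9.14 per array in the clones and 12.27 to 12.39 in the control arrays. Among markers of other cell types, those called higher than in shGFP cells were 1 of 7 for fibroblasts (6.23 to 6.41 in the clones, 6.09 to 6.21 in the controls), 3 of 6 for endothelium (6.64 to 6.80 and 6.09 to 6.32) and 2 of 3 measured for leukocytes (6.02 to 6.21 and 5.56 to 5.78). KDR, the VEGF receptor of endothelium, had the largest of these differences, 1.82 (adjusted p = 1.7e-06, limma). Of 6 neuronal markers, 1 was higher and 1 lower (6.99 to 7.11 and 7.06 to 7.34). Over all genes 26.8% were called higher and 29.0% lower, so nothing is read from these small counts. The fibroblast and leukocyte means lay below 6.59, under which the dimmest 25% of genes fall on average. The endothelial means of the control arrays and their KDR values (5.77 to 6.2) also lay below it. The part of these marker shifts in the guidance gene values was not tested, and in bulk RNA fewer cells of a type and less RNA per cell cannot be told apart.

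**Figure D1:**
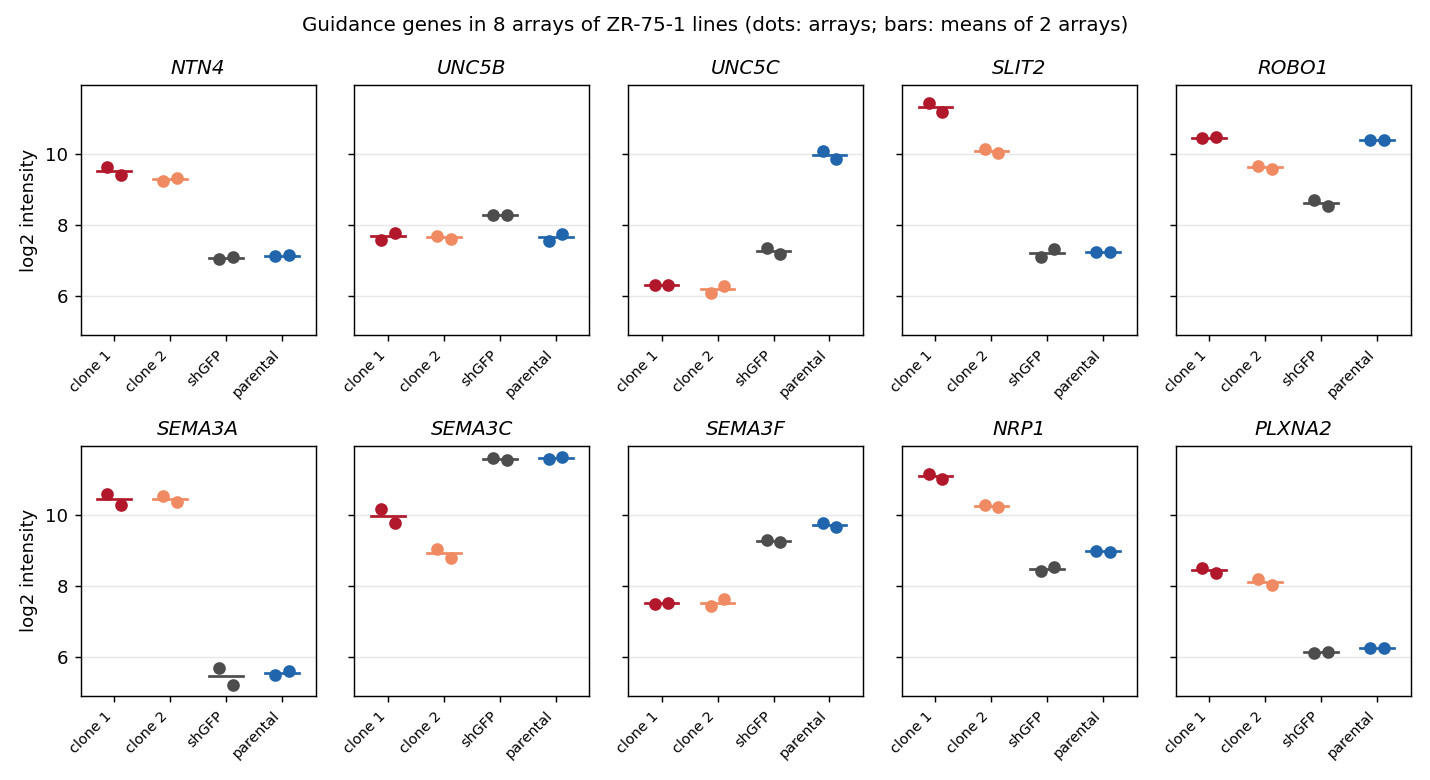
Log2 intensity (vertical axis) of the 10 guidance genes in each of 8 arrays, by line (horizontal axis). Each dot is 1 array and each bar the mean of a line. SEMA3A and SLIT2 lie high in both clones, SEMA3C and SEMA3F lie low in both, and UNC5C and ROBO1 already differ between shGFP and parental cells.

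NTN4 encodes netrin-4, a secreted netrin that binds laminin in basement membranes. Its log2 intensity was 9.65 and 9.40 in clone 1, 9.24 and 9.33 in clone 2, against 7.05 and 7.10 in shGFP cells and 7.13 and 7.14 in the parental line. All 4 ZR-shEI24 arrays lay above all 4 control arrays, and the control lines lay close together. The clones exceeded shGFP cells by 2.33 (standard error 0.09, 5.03-fold) and parental cells by 2.27.

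For both netrin receptors of the UNC5 family among the 10 genes, the control lines differed from each other. UNC5C, a receptor that mediates repulsion from netrin, had values of 6.30 and 6.30 in clone 1, 6.08 and 6.29 in clone 2, against 7.35 and 7.19 in shGFP cells and 10.10 and 9.87 in the parental line. The clones were lowest, shGFP cells lay between, and parental cells stood well above all the others without overlap. The log2 difference was -1.03 from shGFP (standard error 0.10) and -3.74 from parental cells. The clone values of UNC5C lay below 6.59, under which the dimmest 25% of genes fall on average, and array differences are compressed at that level.

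UNC5B, a netrin receptor best known from branching blood vessels, had values of 7.59 and 7.78 in clone 1, 7.70 and 7.61 in clone 2, against 8.27 and 8.28 in shGFP cells and 7.54 and 7.76 in the parental line. The 4 ZR-shEI24 arrays overlapped the parental arrays, and it was the shGFP arrays that stood apart. The difference of the clones from shGFP cells was -0.60 (standard error 0.09), and it was 0.02 from parental cells.

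In the Slit pathway the ligand and its receptor had different profiles. SLIT2, a secreted repellent, had values of 11.45 and 11.20 in clone 1, 10.15 and 10.02 in clone 2, against 7.09 and 7.32 in shGFP cells and 7.23 and 7.25 in the parental line. Clone 1 was highest, clone 2 next, and the 2 control lines overlapped far below them. The clones exceeded shGFP cells by 3.50 (standard error 0.10, 11.3-fold) and parental cells by 3.47.

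ROBO1, a receptor for SLIT2, had values of 10.46 and 10.47 in clone 1, 9.66 and 9.59 in clone 2, against 8.70 and 8.54 in shGFP cells and 10.41 and 10.41 in the parental line. Clone 1 stood at the parental level, clone 2 below it, and shGFP cells were lowest. The clones therefore lay above shGFP cells by 1.42 (standard error 0.08, 2.68-fold) and, with the sign turned, at -0.36 from parental cells. Against parental cells clone 1 differed by 0.06 and clone 2 by -0.78.

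The 3 secreted semaphorins moved in opposite directions. SEMA3A, which repels axons and endothelial cells through NRP1, had values of 10.60 and 10.29 in clone 1, 10.54 and 10.36 in clone 2, against 5.68 and 5.21 in shGFP cells and 5.49 and 5.59 in the parental line. It was high in all 4 ZR-shEI24 arrays and below 6.59 in all control arrays, with no overlap. The difference was 5.00 from shGFP (standard error 0.14, 32-fold) and 4.91 from parental cells, and without shGFP replicate 1 or 2 it was 5.23 or 4.77. At such control levels the fold is compressed.

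SEMA3C, which signals through both neuropilins, had values of 10.16 and 9.76 in clone 1, 9.03 and 8.79 in clone 2, against 11.61 and 11.54 in shGFP cells and 11.58 and 11.63 in the parental line. All ZR-shEI24 arrays lay below all control arrays, clone 2 further than clone 1, and the control lines overlapped. The difference was -2.14 from shGFP (standard error 0.12, 4.41-fold) and -2.17 from parental cells.

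SEMA3F, which acts mainly through NRP2 and was isolated from a region of chromosome 3 lost in lung cancer, had values of 7.49 and 7.51 in clone 1, 7.42 and 7.62 in clone 2, against 9.30 and 9.24 in shGFP cells and 9.78 and 9.67 in the parental line. The clones overlapped each other and lay below both control lines, of which the shGFP line was the lower. The difference was -1.76 from shGFP (standard error 0.08, 3.39-fold) and -2.22 from parental cells.

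Both semaphorin receptors were higher in the clones. NRP1, which binds class 3 semaphorins and also VEGF, had values of 11.16 and 11.01 in clone 1, 10.27 and 10.22 in clone 2, against 8.43 and 8.53 in shGFP cells and 8.99 and 8.95 in the parental line. The 4 lines did not overlap, in the order clone 1, clone 2, parental and shGFP from high to low. The clones exceeded shGFP cells by 2.19 (standard error 0.08, 4.57-fold) and parental cells by 1.70.

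PLXNA2, a plexin that carries the semaphorin signal of the neuropilin complex, had values of 8.51 and 8.36 in clone 1, 8.18 and 8.03 in clone 2, against 6.11 and 6.14 in shGFP cells and 6.24 and 6.24 in the parental line. All ZR-shEI24 arrays lay above all control arrays, whose values also lay below 6.59. The difference was 2.14 from shGFP (standard error 0.08, 4.41-fold) and 2.03 from parental cells.

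Across the 10 genes, all 4 ZR-shEI24 arrays lay above all 4 control arrays for 5 genes (NTN4, SLIT2, SEMA3A, NRP1 and PLXNA2), as they did for 23.8% of all genes. They lay below for 3 genes (UNC5C, SEMA3C and SEMA3F), as for 26.9% of all genes. ROBO1 and UNC5B overlapped the controls. The median difference from shGFP cells was 1.78 over the 10 genes and 0.08 over all genes. Because the genes were picked on this contrast, nothing is read from these counts.

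**Figure D2:**
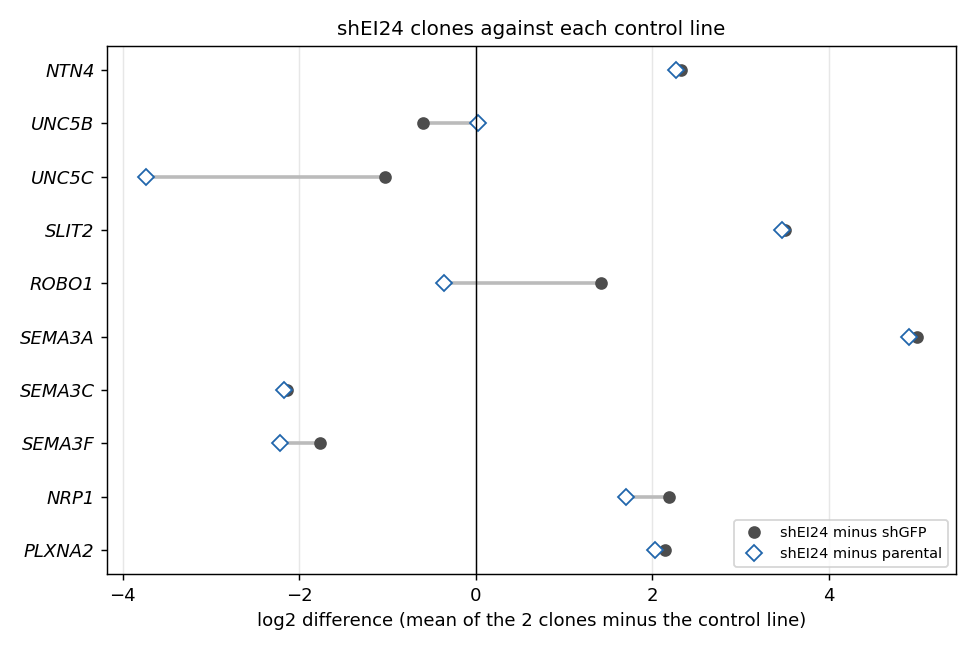
Log2 difference (horizontal axis) of the mean of the 2 ZR-shEI24 clones from shGFP cells (filled circles) and from parental cells (open diamonds) for the 10 guidance genes (vertical axis). For NTN4, SLIT2, SEMA3A, SEMA3C and PLXNA2 the marks nearly coincide, UNC5C moves between -1.03 and -3.74, and ROBO1 and UNC5B change sign.

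The clones were compared with each other in a limma model over all genes. The difference itself uses no control array, while its standard error and p-value rest on the spread within all 4 lines. SLIT2, SEMA3C, ROBO1 and NRP1 were higher in clone 1 than in clone 2, and none of the 10 genes was called lower. These 4 of 10 stand against 9.29% of all genes called higher in clone 1 and 5.88% called lower, and 6 of the 10 had an unadjusted p under 0.05, as had 26.9% of all genes. Since the 10 genes were chosen with earlier results of these data known, nothing is read from these shares. The difference was 1.24 for SLIT2 (standard error 0.12, adjusted p = 0.00039) and 1.05 for SEMA3C (standard error 0.14, adjusted p = 0.0017), each with both clone 1 arrays above both clone 2 arrays.

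ROBO1 and NRP1 each differed by 0.84 between the clones (standard error 0.09 for both, adjusted p = 0.00063 and 7e-04, limma). For SLIT2, ROBO1 and NRP1 clone 1 was the clone further from shGFP cells, by 4.12 against 2.88 in clone 2 for SLIT2, by 1.84 against 1.00 for ROBO1 and by 2.61 against 1.77 for NRP1. For SEMA3C it was the nearer one, at -1.61 in clone 1 and -2.67 in clone 2. EI24 was lower in clone 1 than in clone 2, with a difference of -0.68 (standard error 0.10, adjusted p = 0.0023, limma). With 2 clones no relation between EI24 and these genes can be tested.

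PLXNA2 had a difference of 0.32 between clone 1 and clone 2 (standard error 0.09) that missed the threshold, with an adjusted p of 0.052 (limma). With the replicate number as a block its adjusted p was 0.023. NTN4 differed by 0.24 (95% CI 0.01 to 0.48, adjusted p = 0.17, limma). The other genes had intervals on both sides of 0, which ran from -0.38 to 0.37 for SEMA3A, from -0.24 to 0.20 for SEMA3F, from -0.21 to 0.27 for UNC5B and from -0.15 to 0.38 for UNC5C.

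The 2 control lines were compared in the same model, and this contrast shares the shGFP arrays with the differences from shGFP given above. UNC5C, ROBO1, NRP1 and SEMA3F were lower and UNC5B was higher in shGFP cells than in parental cells at an adjusted p under 0.05. These were 4 of 10 genes lower, where 7.44% of all genes were called lower, and 1 of 10 higher, where 3.21% were called higher. The 10 genes were chosen with earlier results of these data known, so the p-values are those of picked genes. Nothing is read from the shares. With the replicate number as a block 3436 genes were called, against 1962 without it, and the calls of the 10 genes did not change.

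UNC5C differed by -2.72 (standard error 0.12, 6.57-fold, adjusted p = 2.1e-05, limma), which was also the lowest difference of any gene. ROBO1 followed with -1.79 (standard error 0.09, 3.45-fold, adjusted p = 3.2e-05, limma). In both genes the shGFP arrays lay below the parental arrays without overlap, and both calls held when any 1 array was left out.

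The other calls were of smaller differences. NRP1 differed by -0.49 (adjusted p = 0.012), SEMA3F by -0.45 (adjusted p = 0.020) and UNC5B by 0.62 (adjusted p = 0.0089, limma). NRP1 and SEMA3F lost their call when any 1 of the 4 control arrays was left out, with adjusted p of 0.059 to 0.13 and of 0.064 to 0.17, while the differences stayed at -0.54 to -0.44 and -0.51 to -0.40. UNC5B lost it without shGFP replicate 1, shGFP replicate 2 or parental replicate 1 (adjusted p = 0.072, 0.083 and 0.074, limma) and kept it without parental replicate 2, with differences of 0.51 to 0.73.

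NTN4, SLIT2, SEMA3A, SEMA3C and PLXNA2 were not called between the control lines, with differences between -0.11 and -0.03. Their 95% intervals reached from -0.47 to 0.29 at the widest ends. The largest of these differences was that of PLXNA2.

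**Figure D3:**
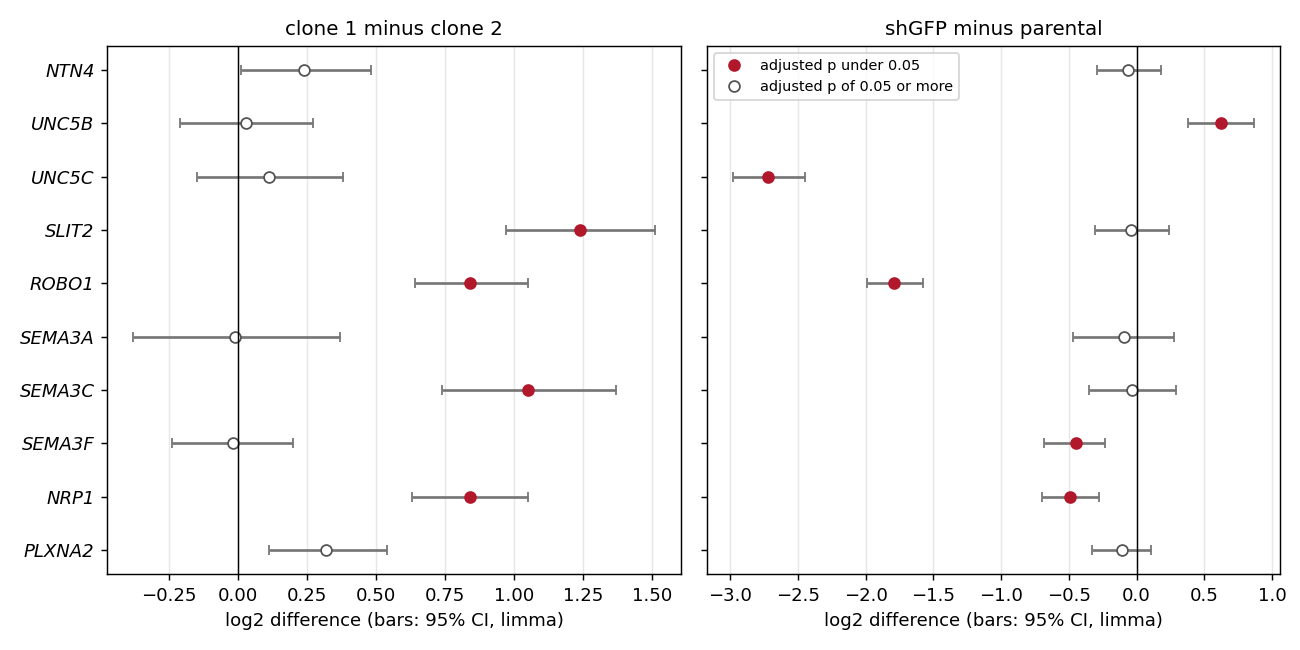
Log2 difference (horizontal axes, different ranges) of clone 1 minus clone 2 on the left and of shGFP minus parental cells on the right, for the 10 guidance genes (vertical axis). Bars are 95% confidence intervals from limma and filled marks have an adjusted p under 0.05. SLIT2, ROBO1, SEMA3C and NRP1 differ between the clones, and UNC5C at -2.72 and ROBO1 at -1.79 differ most between the control lines.

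The rest of the guidance system was taken from a list of 71 further genes, of which 67 were measured. In ZR-shEI24 cells 33 of the 67 rose and 13 fell against shGFP cells at an adjusted p under 0.05 over all genes (limma), and 21 did not pass. That is 49.3% higher, where 26.8% of all genes were called higher, and 19.4% lower, where 29.0% of all genes were called lower. This list too was chosen with earlier results of these data known, so nothing is read from these shares. Of the called genes beyond all control arrays, the 10 with the largest differences are named below. Their p-values are therefore those of picked genes. The median difference was 0.28 over the list and 0.08 over all genes. With a change of at least 2-fold also required, 15 were higher and 4 lower. Over all 18417 genes 3272 then passed in either direction. Against parental cells 29 of the 67 were called higher (43.3%, against 25.1% of all genes) and 13 lower (19.4%, against 30.8%). The counts by class below are against shGFP cells unless parental cells are named. They stand beside the same 26.8% and 29.0% of all genes, and nothing is read from them.

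Among the other netrins and the ligands of netrin receptors 5 of 10 rose and 1 fell against shGFP cells. Against parental cells 3 rose and 1 fell. FLRT2, a membrane protein that binds UNC5 receptors, rose by 2.39, with values of 7.55 to 9.09 in the clones and 5.82 to 6.24 in the control arrays. RGMB, a membrane-anchored ligand of neogenin, rose by 2.14 (10.99 to 11.72 in the clones, 8.94 to 9.27 in the controls). NTN1, the best known netrin, was the gene that fell, with a difference of -0.46 (adjusted p = 0.00076, limma), and it is named here after its value was seen.

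Of the 5 other netrin receptors 1 rose and 2 fell. DSCAM, an adhesion molecule that also binds netrin, had values of 7.99 to 8.26 in the clones and 10.54 to 10.94 in the controls, a difference of -2.49 (standard error 0.09, adjusted p = 5.8e-08, limma). The other gene that fell was NEO1, which encodes neogenin, with -0.91 (adjusted p = 6.8e-06), and the one that rose was UNC5D, with 0.24 (adjusted p = 0.034). DCC, the classical netrin receptor, had a difference of 0.28 that did not pass (adjusted p = 0.096, limma). All DCC values (5.65 to 6.23) and the UNC5D control values (6.38 to 6.53) lay below 6.59, where differences are compressed. NEO1, UNC5D and DCC were chosen after their values were seen.

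Neither SLIT1 nor SLIT3 passed, with differences of 0.07 and 0.15 (adjusted p = 0.57 and 0.17, limma). SLIT2 was thus the Slit with a shift of several log2 units. All 3 other Robo receptors rose, by 1.41 for ROBO4 (8.65 to 8.76 in the clones, 7.09 to 7.56 in the controls), 0.90 for ROBO2 and 0.52 for ROBO3. ROBO4 is the Robo of endothelium. ROBO2, the neighbour of ROBO1 on chromosome 3, differed by 0.10 between shGFP and parental cells (95% CI -0.15 to 0.36). Its control values, 5.57 to 5.91, all lay below 6.59, where differences are compressed. ROBO2 therefore cannot show whether it shares the low shGFP values of ROBO1. ROBO3 missed the threshold against parental cells (difference 0.28, adjusted p = 0.058, limma).

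Of the 4 other secreted semaphorins 2 rose, SEMA3D by 1.88 (7.02 to 8.05 in the clones, 5.56 to 6.0 in the controls) and SEMA3E by 0.70 (adjusted p = 3.7e-05 and 0.0015, limma). On chromosome 7, RefSeq (GRCh38.p14) places SEMA3C, SEMA3E, SEMA3A and SEMA3D in this order, with 3 other protein-coding genes between SEMA3C and SEMA3E and 0 between the others. Within this run of semaphorin genes SEMA3C alone was lower in the clones, while SEMA3E, SEMA3A and SEMA3D were all higher. SEMA3E was higher mainly in clone 1, with 7.54 and 7.05. It had 6.68 and 6.53 in clone 2, against 6.30 and 6.19 in shGFP cells. On chromosome 3, SEMA3B lies 3 protein-coding genes away from SEMA3F, and its difference of 0.17 did not pass (adjusted p = 0.22, limma) where SEMA3F was lower.

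The membrane-bound semaphorins held the most extreme values outside the effectors, with 7 of 12 higher and 2 lower. Against parental cells 8 were higher and 2 lower. SEMA7A, a lipid-anchored semaphorin that acts through integrins and plexin C1, rose by 3.44 (standard error 0.11, adjusted p = 1.7e-08, limma). Its values were 10.93 and 10.68 in clone 1, 10.14 and 9.93 in clone 2, against 6.89 and 7.07 in shGFP cells and 7.22 and 7.13 in the parental line. SEMA4A fell, with 6.20 to 6.84 in the clones and 9.83 to 10.00 in the controls, a difference of -3.33 (standard error 0.17, adjusted p = 4.2e-07, limma).

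Of 9 other neuropilin and plexin genes 4 rose and 3 fell against shGFP cells, and 3 rose and 4 fell against parental cells. NRP2, the main receptor of SEMA3F, rose by 2.55 (standard error 0.12, adjusted p = 2e-07, limma), with 8.02 to 8.87 in the clones and 5.85 to 6.21 in the controls. Both neuropilins were therefore higher in the clones. NRP2 was, like NRP1, higher in clone 1 than in clone 2 (0.63, adjusted p = 0.015, limma). It was not called between shGFP and parental cells (-0.15, 95% CI -0.45 to 0.16). All its control values lay below 6.59, where differences are compressed, so no contrast with NRP1 is drawn from this. PLXNB1, a plexin for class 4 semaphorins, had the lowest value of the group, -1.02 (adjusted p = 4e-05, limma), and was chosen after its value was seen.

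Among 22 intracellular effectors 11 rose and 5 fell against shGFP cells, and 10 rose and 4 fell against parental cells. MICAL2, of the family of enzymes that oxidise actin, rose by 3.69 (standard error 0.12, 12.9-fold, adjusted p = 1.9e-08, limma), with values of 9.68 to 10.19 in the clones and 6.10 to 6.88 in the controls. FYN, a tyrosine kinase downstream of DCC and plexins, rose by 2.85 (9.32 to 9.59 in the clones, 6.51 to 6.63 in the controls). MICAL2 was lower in shGFP than in parental cells (-0.58, adjusted p = 0.029, limma), and its difference from parental cells was 3.11. Its shGFP values, 6.10 and 6.29, and the parental values of FYN lay below 6.59, where differences are compressed.

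Over the wider list, clone 1 was higher than clone 2 in 6 of 67 genes and lower in 2, and shGFP cells were lower than parental cells in 6 (8.96%, against 7.44% of all genes) and higher in 0 (3.21% of all genes). Between shGFP and parental cells 14 of the 67 genes (20.9%) had an unadjusted p under 0.05 (limma), against 24.6% of all genes. The genes higher in clone 1 included FLRT2 (1.09), SEMA7A (0.77), SEMA3E (0.69) and NRP2 (0.63), and RGMB was lower (-0.63). The shares between the clones were 8.96% higher and 2.99% lower, against 9.29% and 5.88% of all genes.

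**Figure D4:**
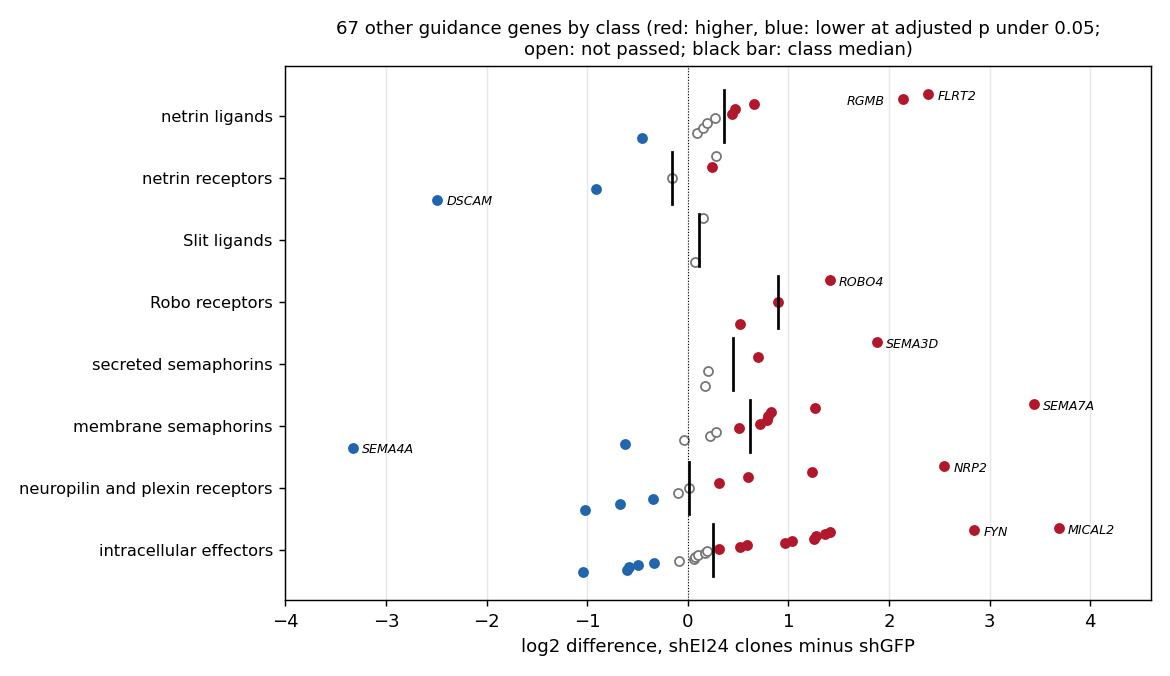
Log2 difference of the ZR-shEI24 clones from shGFP cells (horizontal axis) for 67 other guidance genes by class (vertical axis). Dots are genes, red called higher, blue called lower and open not passed, and black bars are class medians. MICAL2 at 3.69 and SEMA7A at 3.44 lie highest and SEMA4A at -3.33 lowest.

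The likeness of profiles was measured as the root mean square difference between 2 genes over the 8 arrays, after each was centred on its own mean, and is a description only. Among pairs of the 10 genes NTN4 and PLXNA2 were closest (0.13 log2 units), followed by NRP1 and PLXNA2 (0.24), NTN4 and NRP1 (0.32) and SEMA3C and SEMA3F (0.44). The ligand and receptor pair SEMA3A and NRP1 was further apart (1.55), as was the pair SLIT2 and ROBO1 (1.61). The arrays of a line lie together, so these numbers reflect mainly 4 line means.

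Of all genes, those nearest to SEMA3A were LOX, which encodes the collagen cross-linking enzyme lysyl oxidase (0.12), and PLAC8 (0.18). SLIT2 was nearest to GALC (0.11) and TLR4, a receptor for bacterial lipopolysaccharide (0.13). NTN4 was nearest to CTSC (0.07) and ANK2 (0.10), PLXNA2 to the thrombin receptor gene F2R (0.05) and TNFAIP2 (0.07), and NRP1 to EIF5A2 and GPX3 (0.08 each). Each of the 10 guidance genes had a closer neighbour outside the group than within it. With so many more genes outside the group this was near certain beforehand, and nothing is read from it.

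Of the remaining guidance genes, SEMA3F was nearest to LYPD3 (0.05) and GLB1L2 (0.10), and SEMA3C to the DNA helicase gene BLM (0.07) and CHRNA5 (0.09). UNC5B was nearest to OVOL2 (0.08) and GLIPR1L2 (0.09). ROBO1 had no neighbour closer than CYP1B1 (0.26), followed by CRISPLD1 (0.27). UNC5C was nearest to NPY5R (0.20) and then to TMPRSS4 (0.45). NPY5R shared its order of lines, with mean values of 4.85 in clone 1, 4.79 in clone 2, against 6.09 in shGFP cells and 8.62 in the parental line.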

How the data were processed

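The authors deposited log2 intensities of 33297 transcript clusters on 8 arrays, summarised with RMA, which subtracts background, makes the arrays' distributions equal and combines probes; the submitters' processing notes also name GCOS, with no version given for either. RMA compresses differences of dim genes. Array medians lay between 7.28 and 7.39. The methods name an exon array, whereas the cluster identifiers matched the platform annotation of a gene-level array. Of the clusters, 19460 had 1 gene symbol, 1754 several and 12083 none here; the cluster with the highest mean was kept for each of 18417 genes. Array intensities carry no read depth, so the number of arrays limits the precision.

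Lines were taken from the titles, in which ZR-shEI24 samples carry a pair of numbers, read as clone and then replicate. limma 3.58.1 (R 4.3.3) fitted a mean per line to all 8 arrays, with 4 residual degrees of freedom, moderated variances (eBayes) and Benjamini-Hochberg adjustment over 18417 genes. The code was tested on simulated data. Replicate 1 minus replicate 2 correlated between lines over all genes (r between 0.25 and 0.59 for the 6 pairs of lines), so the numbers were taken to pair the arrays, and a fit with the replicate number as a block was run beside the one without it. It called 3436 genes between shGFP and parental cells, against 1962 without the block.

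The 10 genes, the wider list and the marker lists were chosen with earlier results of these data known. Named from the wider list were the 10 genes with the largest difference between the clones and shGFP among those called whose 4 ZR-shEI24 arrays lay beyond all control arrays, and for each of the 10 guidance genes its 2 nearest profiles. Promoter windows came from RefSeq (GRCh38.p14). Alternatives were another variance model, normalization, centring, a filter on dim genes, all clusters, a 2-fold minimum, the methods' unpaired t-test, each array left out, and other controls.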

Additional observations from a re-analysis of the deposited data

Results flagged for a closer look

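The 2 clones differed in 4 of the 10 guidance genes, and so in their difference from shGFP cells, by a test of clone 1 minus clone 2 (limma, adjusted over all genes). The log2 difference was 1.24 for SLIT2 (standard error 0.12, adjusted p = 0.00039), 1.05 for SEMA3C (standard error 0.14, adjusted p = 0.0017), 0.84 for ROBO1 (standard error 0.09, adjusted p = 0.00063) and 0.84 for NRP1 (standard error 0.09, adjusted p = 7e-04). All 4 genes were higher in both arrays of clone 1 than in both arrays of clone 2, and all 4 calls held when any 1 array was left out.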

How the results depend on the processing

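Between the clones, 4 of the 10 guidance genes were called, 2 with a 2-fold minimum and 0 by the methods' t-test (4 at an unadjusted p under 0.05, lowest adjusted p 0.14), and 4 when any 1 array was left out. Between shGFP and parental cells 5 were called, 2 with a 2-fold minimum, 0 by the methods' t-test (6 at an unadjusted p under 0.05, lowest adjusted p 0.11) and 2 to 5 with 1 array left out. Over all genes, 10289 were called between the clones and shGFP cells, 3272 with a 2-fold minimum and 6166 with each line as 1 replicate. Between the clones 2794 genes were called, 282 with a 2-fold minimum, 4 by the methods' t-test and 1744 to 2473 with 1 array left out. Between shGFP and parental cells 1962 genes were called, 3117 with an intensity trend and robust variances, 3436 with the replicate block, 133 with a 2-fold minimum, 11 by the methods' t-test and 394 to 2219 with 1 array left out. The wider guidance genes called higher and lower, 33 and 13, were 15 and 4 with a 2-fold minimum. With parental cells as the control the difference of UNC5B from the clones turned to 0.02 and that of ROBO1 to -0.36, and pooling both controls gave -0.29 and 0.53. A second quantile normalization gave -1.19 for UNC5C. PLXNA2 passed between the clones with that normalization, without the dimmest 25% of genes and with the replicate block (adjusted p = 0.027, 0.034 and 0.023), and the block changed no other call of the 10 genes. The causes of these changes were not tested. Fitting all transcript clusters changed no call of the 10 genes. Using a gene's second cluster gave no value, since none of the 10 had one. SEMA3A, PLXNA2 and UNC5C lie below 6.59, among the dimmest 25% of gene means, in at least 1 group, where RMA compresses differences. Of the wider genes given with values above, the control values of DCC, FLRT2, NRP2, ROBO2, SEMA3D, SEMA3E and UNC5D also lie below that level. So do the shGFP values of MICAL2 and the parental values of FYN.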
